A study of Mus musculus with 24 samples.

Results

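The comparison described here sets T11 cells given the fusion peptide FPP-1746-Omomyc for 6 h against T11 cells given the carrier peptide FPP-1746 alone for 6 h. It was formed from the 2 deposited columns of mean FPKM (a fragment count corrected for library depth and for the length of the transcript) that carry those names, out of 8 columns in the table, and rests on 6 of the 24 samples. Of 23235 genes listed, 10262 averaged 1 FPKM or more across all 8 columns and were kept. These columns include those of the fusion, so a gene could be kept through its values there alone. Because both arms hold the carrier, the ratio shows what differed when the Omomyc cargo was added to it.

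T11 is a claudin-low line derived from a mouse mammary tumour, here expressing a luciferase gene. The cells were seeded in a medium with little serum, grown for days and then treated for 3 h or 6 h. The 4 treatments were PBS as control, the free cargo Omomyc, the free carrier FPP-1746 and the fusion FPP-1746-Omomyc, the last 3 at 5 µM. Each of these 8 groups had 3 biological replicates, which the deposited table gives as 1 averaged column per group. All groups, the PBS controls included, are the same line, so the data speak for 1 line in culture. The samples titled as the fusion at 6 h carry a treatment tag that reads 3 hours, whereas their titles and the name of the table's column say 6 h, and the latter were followed.

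The proto-oncogene product MYC binds DNA as a pair with MAX, mostly at the hexamer CACGTG called the E-box, and drives genes of ribosome production, nucleotide synthesis and cell division. MAX also pairs with MNT and the MXD proteins, which repress at the same sites. Omomyc is an altered form of the dimerisation domain of MYC that pairs with MYC, with MAX and with itself, and so competes for partners and for E-boxes. FPP-1746 is a cell-penetrating peptide, used to carry the cargo across the cell membrane.

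Since each group is a single mean, no spread between replicates could be seen. No test was run, no p-value is given, and every difference below lacks a replicate check. Calls rest on size alone: higher means a log2 ratio of FPKM + 1 of 1 or more, and lower means one of -1 or less, both called 2-fold below. The added 1 FPKM understates differences of genes with low values. The sums of FPKM were 475030 for FPP-1746 and 445657 for the fusion at 6 h, the latter the lowest of the 8 columns. Fusion at 3 h had the highest, 594951. At 6 h, 10125 genes had 1 FPKM or more in FPP-1746 and 10288 in the fusion. Read from the step between low values, and only roughly, 1 FPKM of a 2000-base transcript stood for about 101 fragments in FPP-1746 and 105 in the fusion at 6 h. FPKM are shares of a library, so fewer cells and less RNA per cell cannot be told apart in them.

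Sequences of 8 promoters are shown because their genes are described below and each promoter holds one of the motifs counted at the end. They are 120-base stretches of RefSeq promoters (GRCm38.p6), printed 5′ to 3′ on the gene's own strand, with the motif in capitals. The first pair holds the E-box, in Cdk4, a cyclin-dependent kinase gene activated by MYC (chr10:127063386-127063505, plus strand), and in Mnt, the gene of a MAX partner (chr11:74830744-74830863, plus strand). The Cdk4 promoter has 4 E-boxes in its 300 bases, of which 2 lie in the stretch.
Cdk4: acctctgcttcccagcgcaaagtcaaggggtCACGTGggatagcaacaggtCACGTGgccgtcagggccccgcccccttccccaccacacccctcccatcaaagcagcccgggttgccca
Mnt: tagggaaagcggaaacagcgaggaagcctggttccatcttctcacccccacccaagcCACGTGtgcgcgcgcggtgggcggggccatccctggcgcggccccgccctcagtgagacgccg

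Trib3 (chr2:152344011-152344130, minus strand), Chac1 (chr2:119350993-119351112, plus strand), Nupr1 (chr7:126625517-126625636, minus strand) and Atf3 (chr1:191183380-191183499, minus strand) hold the core of the site bound by ATF4, the transcription factor of the integrated stress response. Atf3 is described below with the early genes and is not in the list of ATF4 targets. The core was searched as TGATGNAA on both strands, and the capitals show it as it reads on the gene's strand.
Trib3: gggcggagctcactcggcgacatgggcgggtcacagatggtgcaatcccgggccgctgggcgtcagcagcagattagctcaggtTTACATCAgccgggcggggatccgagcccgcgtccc
Chac1: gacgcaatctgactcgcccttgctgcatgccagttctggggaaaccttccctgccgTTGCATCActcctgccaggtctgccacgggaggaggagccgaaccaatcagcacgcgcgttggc
Nupr1: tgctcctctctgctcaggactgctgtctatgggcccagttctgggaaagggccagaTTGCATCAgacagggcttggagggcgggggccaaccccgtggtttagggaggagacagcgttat
Atf3: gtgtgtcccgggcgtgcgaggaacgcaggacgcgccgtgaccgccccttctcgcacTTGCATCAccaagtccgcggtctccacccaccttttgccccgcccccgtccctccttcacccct

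Cnn2 (chr10:79988489-79988608, plus strand) and Myl9 (chr2:156775248-156775367, plus strand), genes of actin-binding and myosin proteins, hold the CArG box, the site of serum response factor.
Cnn2: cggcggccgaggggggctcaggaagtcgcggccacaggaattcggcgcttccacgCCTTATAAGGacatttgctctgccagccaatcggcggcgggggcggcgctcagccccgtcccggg
Myl9: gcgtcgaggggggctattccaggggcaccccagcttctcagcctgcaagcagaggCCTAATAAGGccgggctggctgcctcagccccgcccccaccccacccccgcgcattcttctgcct

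With the fusion, 712 of the 10262 genes were higher than with FPP-1746 at 6 h (6.94%) and 329 were lower (3.21%). Higher genes thus made up 68.4% of the 1041 past 2-fold, while the median log2 ratio over all genes was -0.02. For the gene lists below, 6.94% and 3.21% are the shares to set their counts against. The lists overlap, so some genes, such as Rgs2 and Sqstm1, are counted in more than a single list. Larger differences were more one-sided. Without the records of small RNAs, 679 genes were higher and 293 lower by 2-fold, 108 and 15 by 4-fold, 21 and 1 by 8-fold, and 5 and 0 by 16-fold. Of the 140 small RNA records, 69 were past 2-fold here and 64 between Omomyc and PBS at 6 h, and they are named nowhere below. For scale, FPP-1746 differed from PBS at 6 h in 23 genes upward (0.224%) and 34 downward (0.331%). Omomyc without the carrier differed from PBS in 32 upward (0.312%) and 38 downward (0.37%). Without small RNA records these counts were 2 and 3 for FPP-1746 and 4 and 2 for Omomyc. Against PBS, the fusion had 732 genes higher (7.13%) and 343 lower (3.34%), and against Omomyc 676 higher (6.59%) and 315 lower (3.07%). These 3 comparisons share the fusion column, so their values are set side by side and not counted as agreement. Just inside the limits lay Skil, Tmem53 and Ctsb at 1.00 and Nt5c3l, Itga3 and Dock8 at -1.0, and just outside Ostf1, Zfp566 and Rbm12 at 0.999 and Sms, Eme2 and Col1a2 at -0.999 to -0.997.

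**Figure D1:**
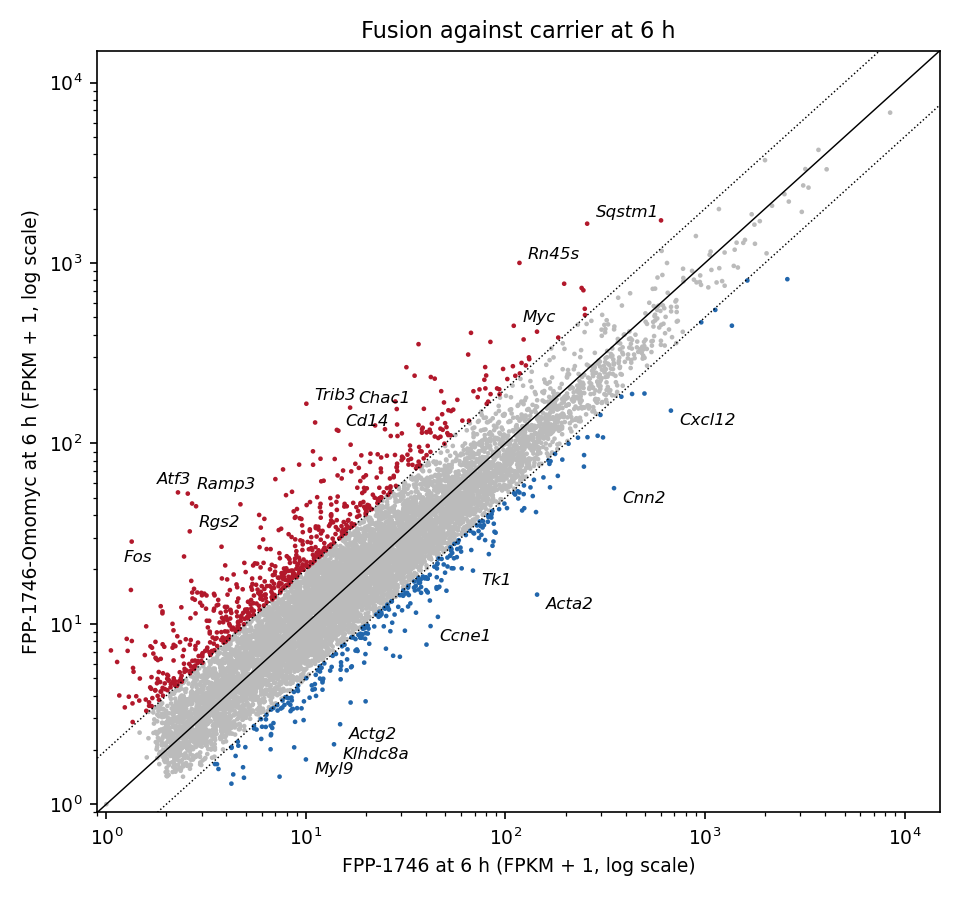
Mean FPKM + 1 of 10122 genes, small RNA records left out, in FPP-1746 (x axis) and FPP-1746-Omomyc (y axis) at 6 h, both on log scales, 1 point per gene. The solid line marks equal values and the dotted lines 2-fold, with 679 genes above in red and 293 below in blue, and Fos, Atf3 and Trib3 lie far above the line while Acta2 and Cnn2 lie far below it.

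The cell identity given by the labels was checked against markers. Mesenchymal genes summed to 8103 FPKM in FPP-1746 and 7859 in the fusion at 6 h, and Vim, the mesenchymal intermediate filament gene, stood at 4066 and 3302 FPKM. The epithelial markers Epcam, Cldn3, Krt5 and Krt18 were listed at 0 in every column, and the 12 epithelial markers together reached 3.26 and 4.25 FPKM. Of the 12, 1 was kept, with a log2 ratio of 0.30 at 6 h and 1.48 at 3 h. Their highest sum was 7.19 FPKM, in the fusion at 3 h. Of endothelial markers none was kept, and they summed to at most 0.182 FPKM in any column. Among 8 macrophage markers Emr1 and Tyrobp were at 0 in every column and 2 were kept, Cd68 and Cd14. The 8 together had 15.3 FPKM with FPP-1746 and 121 with the fusion, of which Cd14 made 13.3 and 118. Of 5 adipocyte markers Lep and Pparg were at 0, and the list summed to 2.33 and 2.21 FPKM.

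Genes of the MYC and MAX network differed at the level of their own transcripts. Of 11 kept members 4 were higher and 1 lower, with a median log2 ratio of 0.59 against -0.02 over all genes. With a pseudocount of 5 FPKM that median was 0.36, and with no filter on FPKM 0.38. Myc itself (mm9 chr15:61816896-61821916) was listed at 106 FPKM in PBS, 98.7 in Omomyc, 109 in FPP-1746 and 447 in the fusion, a log2 ratio of 2.03 over FPP-1746. The fusion column lay far above the other 3, which were close together. Mnt (mm9 chr11:74644426-74659227), whose product pairs with MAX and represses MYC targets, was at 4.34, 5.11, 5.11 and 28.3 FPKM in the same order, a ratio of 2.26. Mxd4 and Mxi1, further repressive MAX partners, had 5.83 and 9.08 FPKM in FPP-1746 and 17.6 and 20.0 in the fusion, ratios of 1.44 and 1.06. Mxd3, another of that family, went the other way, from 17.3 to 7.69 FPKM (-1.08), and its locus is shared with another gene in the table. Max, the common partner, was at 44.4, 42.9, 47.1 and 61.7 FPKM, a log2 ratio of 0.38 that did not pass 2-fold. Mlx, a related partner, had a ratio of 0.00.

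Of 44 genes that MYC is known to activate, none was higher by 2-fold and 3 were lower (6.82%, against 3.21% over all genes). The median was -0.45, and 36 lay below 0. Cad, which starts pyrimidine synthesis, was at 50.2 FPKM in PBS, 50.6 in Omomyc, 56.0 in FPP-1746 and 22.4 in the fusion (-1.29). Gart, an enzyme of purine synthesis, was at 94.7, 93.4, 97.8 and 45.4 FPKM (-1.09). Ifrd2, a ribosome-binding protein gene, was at 32.0, 30.3, 34.5 and 15.2 FPKM (-1.13). For each of these 3 genes the fusion column held the lowest value at 6 h. Cdk4, whose promoter with its E-boxes is printed above, went from 600.0 to 351 FPKM (-0.77). Npm1, a nucleolar protein gene, went from 495 to 345 (-0.52) and Odc1, of polyamine synthesis, from 54.8 to 34.7 (-0.64), none of which passed 2-fold. Cyclin D2 (Ccnd2) at 0.47 and Shmt2 of serine metabolism at 0.46 had the highest ratios in this list. Over PBS the list's median was -0.42 with the fusion and 0.04 with FPP-1746. At 3 h the median of fusion over FPP-1746 was -0.21.

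Genes that MYC is known to repress leaned upward, with 5 of 16 higher, 1 lower and a median of 0.52. The filter kept 16 of the 19 listed, and Txnip passed it only through the fusion columns. With no filter on FPKM the median was 0.28, so the lean depended in part on which genes were kept. Cdkn1a, the p21 inhibitor of cyclin-dependent kinases, was listed at 3.05 FPKM in PBS, 2.45 in Omomyc, 2.78 in FPP-1746 and 25.7 in the fusion (2.82). Gadd45a, a stress gene of growth arrest, went from 9.85 to 89.3 FPKM (3.06), with a shared locus. Ndrg1, a gene of growth arrest and hypoxia, went from 34.0 to 236 (2.76), and Txnip, an inhibitor of thioredoxin, from 0.664 to 6.50, also at a shared locus. In this list 11 members lay above 0 and 5 below. Of the 5, only Thbs1, the matrix protein thrombospondin, was lower by 2-fold, from 307 to 107 FPKM (-1.51). The other inhibitors of cyclin-dependent kinases did not follow Cdkn1a past 2-fold: Cdkn2b had 0.96, Cdkn2a 0.06, Cdkn1b -0.08 and Cdkn2c -0.44.

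**Figure D2:**
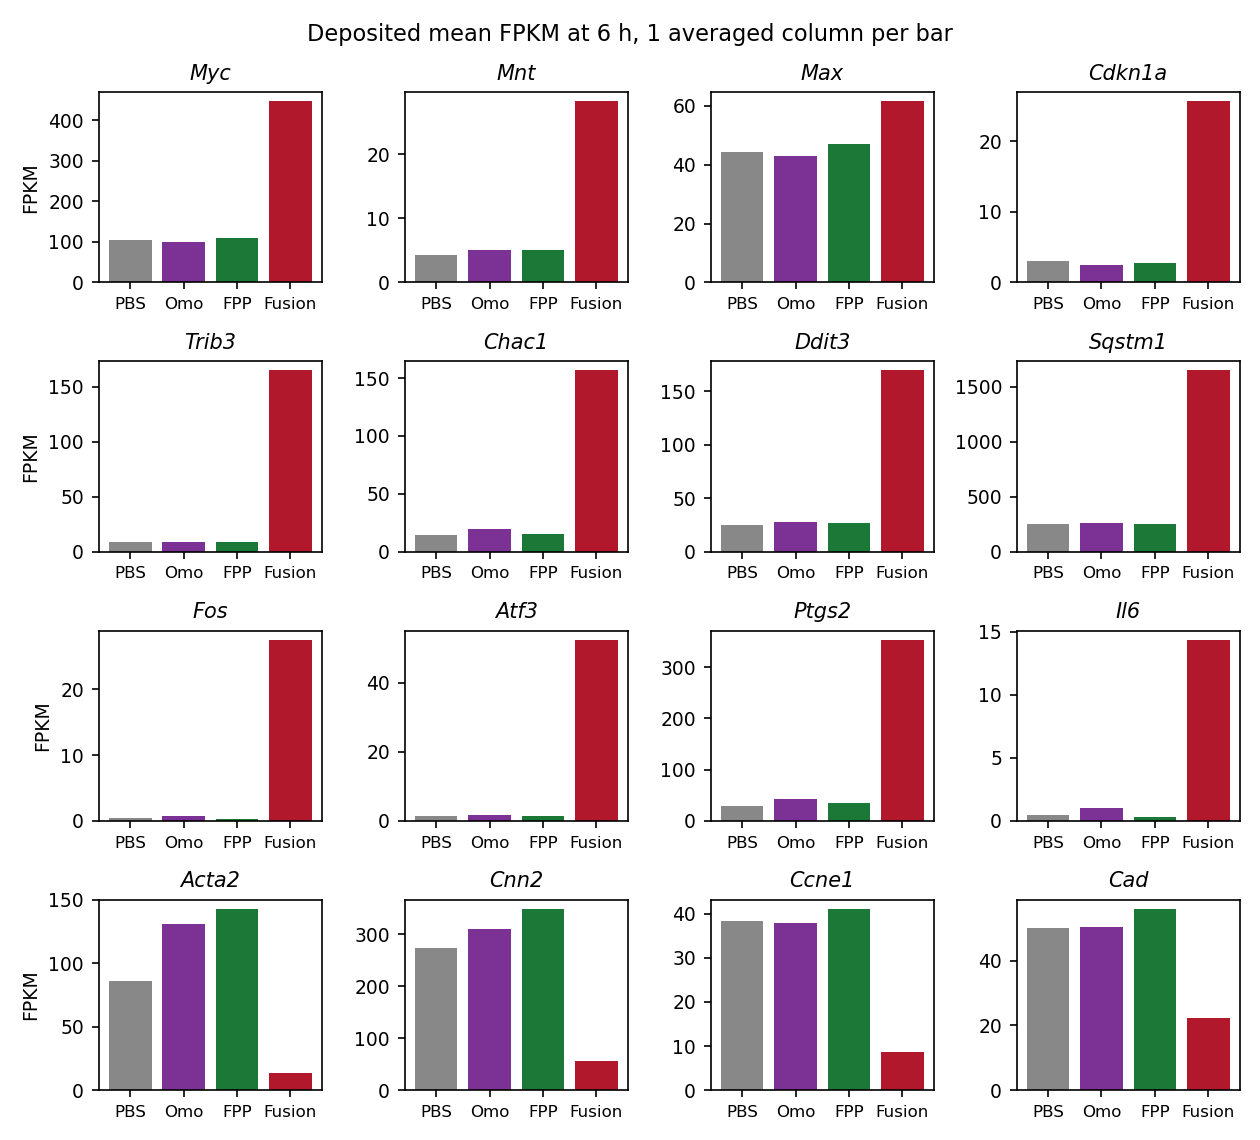
Deposited mean FPKM of 16 genes at 6 h in PBS, Omomyc (Omo), FPP-1746 (FPP) and FPP-1746-Omomyc (Fusion), each bar 1 averaged column with no error available and each panel with its own axis from 0. The 3 columns without the fusion are close together in most panels, as for Myc (106, 98.7 and 109 FPKM against 447), while for Acta2 they run from 86.2 to 143 FPKM and the fusion is at 13.5.

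Immediate-early genes, which encode transcription factors and regulators switched on within minutes to hours of a stimulus, held the largest ratios outside the small RNA records. Of 32 kept, 26 were higher, none was lower and all 32 lay above 0, with a median of 1.77. Fos passed the filter only through the fusion columns. With no filter on FPKM the median was 1.75. Atf3, a stress-induced factor (mm9 chr1:192994176-193007212), was listed at 1.31 FPKM in PBS, 1.63 in Omomyc, 1.28 in FPP-1746 and 52.5 in the fusion, a ratio of 4.55. Fos (mm9 chr12:86814851-86818219), a subunit of the AP-1 factor, was at 0.370, 0.760, 0.340 and 27.5 FPKM (4.41). Fosb, its relative, was at 1.44, 3.92, 1.69 and 45.4 (4.11). In all 3 the fusion stood far above the other columns, and Omomyc alone was the highest of the rest. Egr1 went from 1.45 to 22.6 FPKM (3.27), and the orphan nuclear receptor genes Nr4a1 and Nr4a2 from 6.68 to 70.7 (3.22) and from 3.70 to 44.9 (3.29). Klf4, a zinc finger factor, went from 6.03 to 62.3 (3.17). Jun, the partner of FOS in AP-1, was at 51.8 and 84.3 FPKM, a ratio of 0.69 short of 2-fold, and Dusp2, a phosphatase of MAP kinases, had the lowest ratio of the list, 0.17.

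These genes were further apart at 3 h, where the median of the list was 2.86 and 29 of 32 were higher. Fos stood at 0.523 FPKM in FPP-1746 and 170 in the fusion at 3 h, a ratio of 6.81 against 4.41 at 6 h. Ier3, an early gene of survival, had 77.2 and 1517 FPKM at 3 h (4.28) and 83.0 and 364 at 6 h (2.12). For both genes the ratio was smaller at 6 h, and the fusion column was the one that differed most between the times.

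Feedback regulators of the MAP kinase pathway, by which cells damp growth signals, had 8 of 20 higher, none lower and a median of 0.83. The lowest ratio in the list was -0.99, just short of 2-fold. Over PBS and over Omomyc the list had 8 higher and 1 lower. Dusp1, Dusp4 and Dusp10, phosphatases that inactivate MAP kinases, went from 8.49 to 37.1, from 14.4 to 69.7 and from 9.08 to 44.5 FPKM. Areg, encoding amphiregulin, a ligand of the EGF receptor, was at 1.87 FPKM in PBS, 2.16 in Omomyc, 1.99 in FPP-1746 and 13.8 in the fusion (2.31). Ereg, another such ligand, had a ratio of 1.81, whereas Hbegf had 0.44. A list drawn up for mRNA stability, which also holds the early gene Ier3, had 7 of 11 higher and a median of 1.08. Among its members Zfp36 and Zfp36l1, which bind AU-rich elements and speed decay, went from 6.36 to 23.6 (1.74) and from 7.84 to 28.4 FPKM (1.73), and Btg1, a regulator of deadenylation, from 9.48 to 46.3.

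Regulators of G-protein-coupled receptors were few, with 7 of 13 listed genes kept. Of the 7, 4 were higher (57.1%, against 6.94% over all genes) and 1 was lower (14.3%, against 3.21%). The median was 1.15, but 0.092 with no filter on FPKM, so it depended on which genes were kept. Ramp3, which carries calcitonin-type receptors to the surface, was listed at 0.747 FPKM in PBS, 2.85 in Omomyc, 1.56 in FPP-1746 and 51.6 in the fusion (4.36), at a locus shared with another gene. Rgs2, which switches off G proteins, was at 1.47, 2.19, 1.62 and 31.5 (3.63). In both genes Omomyc alone lay above PBS and above FPP-1746. Rgs19, of the same family, lay on the other side with 51.8 and 22.9 FPKM (-1.15).

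Targets of ATF4 and the integrated stress response formed another group on the higher side. This response slows translation in general while ATF4 protein is made, and ATF4 then turns on genes of amino acid supply and, under lasting stress, of cell death. All 31 kept members lay above 0, 19 were higher by 2-fold, and the median was 1.47 with the fusion over FPP-1746 and 1.44 over PBS, against 0.05 for FPP-1746 over PBS. Trib3, a pseudokinase induced by ATF4 and CHOP (mm9 chr2:152163161-152169796), was at 8.60 FPKM in PBS, 8.91 in Omomyc, 9.05 in FPP-1746 and 165 in the fusion, a ratio of 4.04. Chac1, which degrades glutathione (mm9 chr2:119176978-119180062), was at 14.6, 19.6, 15.7 and 157 FPKM (3.24). Nupr1, a stress-induced chromatin protein gene, was at 77.9, 78.6, 66.2 and 409 (2.61). For each of them the fusion lay well apart from 3 columns close to each other.

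Regulators of the same response were also among the higher genes. Atf4 itself had 240 FPKM in FPP-1746 and 725 in the fusion (1.59), Ddit3, which encodes CHOP, 27.1 and 170 (2.60, shared locus), and Ppp1r15a, which restores translation, 15.8 and 97.3 (2.55). Cebpb, a bZIP factor, had 27.5 and 154 (2.44). Transport and synthesis genes had ratios that ranged from near these to much smaller. Slc7a11, the cystine transporter, had 1.69 and 13.9 FPKM (2.47), Slc3a2, its partner chain, 119 and 278 (1.21), and Asns, asparagine synthetase, 254 and 458 (0.85). Phgdh, the first enzyme of serine synthesis, had the lowest ratio of the list, 0.27.

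Unlike the early genes, the ATF4 targets had a smaller median at 3 h, 0.58 with 11 of 31 higher. Trib3 had 10.9 and 37.8 FPKM at 3 h (1.70), and Slc7a11 had 4.73 and 5.23 (0.12). Chac1 was the reverse, with 17.1 and 292 FPKM at 3 h (4.02). The carrier column itself differed between the times for some of these genes, with Asns at 346 FPKM in FPP-1746 at 3 h and 254 at 6 h. Against the mean of both FPP-1746 columns the median at 6 h was 0.96.

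The unfolded protein response shares ATF4 with this pathway but adds chaperones of the endoplasmic reticulum. Here 2 of 20 were higher (10%, against 6.94% over all genes) and 1 was lower (5%, against 3.21%), both near the shares over all genes. Below 0 lay 15, with a median of -0.28. Dnajb9, a co-chaperone, went from 8.02 to 42.2 FPKM (2.26) and Ern1, the stress sensor IRE1, from 5.38 to 15.2 (1.34). Xbp1, which IRE1 splices, went from 24.4 to 49.6 (0.99). Hspa5, the main chaperone BiP, was at 493 FPKM in PBS, 530 in Omomyc, 562 in FPP-1746 and 479 in the fusion (-0.23), and Sdf2l1, part of a chaperone complex, had 23.6 and 8.68 (-1.34). Cytosolic heat shock genes lay on both sides of 0 too, 6 above and 9 below, with a median of -0.09. Of these 15, 2 were higher (13.3%, against 6.94% over all genes) and none was lower. Hspa4l and Dnajb4 had ratios of 2.03 and 1.53, and Hspa8, the constitutive HSP70, had 53.9 and 27.5 FPKM (-0.95).

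Genes of oxidative and metal stress were higher in part. Of 21 genes of NRF2, the transcription factor of the oxidant response, and of redox balance, 6 were higher and none lower, but the median was -0.01. Sqstm1, an autophagy receptor that binds the NRF2 inhibitor KEAP1, was at 254 FPKM in PBS, 261 in Omomyc, 256 in FPP-1746 and 1649 in the fusion (2.69). Hmox1, which degrades haem, was at 44.9, 34.2, 43.2 and 227 (2.37). Nfe2l2, the gene of NRF2, had 41.1 and 114 (1.45), whereas Gclm, of glutathione synthesis, had 181 and 153 (-0.24) and Fth1, ferritin, 2628 and 2187 (-0.26). Of 7 metal response genes 4 were higher. The metallothioneins Mt1 and Mt2, which bind zinc and resemble each other in sequence, had 196 and 766 FPKM (1.96) and 21.2 and 125 (2.50), and Slc30a1, a zinc exporter, 2.64 and 12.6 (1.90, shared locus). In PBS Mt2 was at 34.5 FPKM, above FPP-1746, so its ratio over PBS was 1.83. Lysosome and autophagy genes had 6 of 19 higher, none lower and a median of 0.69, with Map1lc3b, the autophagosome protein LC3B, at 16.7 and 76.1 FPKM (2.12) and Ctsd, a lysosomal protease, at 249 and 556 (1.16). Tfeb, the regulator of lysosome genes, had -0.08.

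Of 18 genes of the p53 response 7 were higher, none lower, and the median was 0.54. Eda2r, a receptor of the TNF family, was at 1.68 FPKM in PBS, 2.68 in Omomyc, 1.82 in FPP-1746 and 43.8 in the fusion (3.99). Sesn2, which is also in the ATF4 list, had 7.69 and 41.0 FPKM (2.27), Plk3, a stress kinase, 8.57 and 34.1 (1.87, shared locus), Mdm2, the ligase that degrades p53, 17.1 and 55.8 (1.65) and Bbc3, the pro-death protein PUMA, 4.49 and 13.3 (1.38). Other targets were not higher: Bax had -0.27 and Ccng1 -0.93, and Trp53 itself was at 48.4, 44.5, 42.9 and 23.6 FPKM in PBS, Omomyc, FPP-1746 and the fusion (-0.84). Among 15 genes of the BCL2 family and apoptosis, 2 were higher (13.3%, against 6.94% over all genes) and 1 lower (6.67%, against 3.21%). These are few calls, and the median was 0.07 with 8 above 0 and 7 below. Mcl1, a short-lived survival protein gene, went from 64.7 to 133 FPKM (1.03).

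Genes of NF-κB and its cytokines had 13 of 24 higher (54.2%, against 6.94% over all genes), none lower and a median of 1.04. The filter kept 24 of the 33 listed, and Il6 and Il11 passed it only through the fusion columns. These counts therefore lean toward genes high with the fusion. With no filter on FPKM the median was 0.67. Over PBS the same list had 9 higher and a median of 0.80. Il6, an inflammatory cytokine gene, was listed at 0.492 FPKM in PBS, 1.02 in Omomyc, 0.328 in FPP-1746 and 14.4 in the fusion (3.54). Ptgs2, the inducible cyclooxygenase, was at 29.4, 42.8, 35.7 and 354 (3.27). Cd14, a lipopolysaccharide co-receptor, was at 12.9, 24.5, 13.3 and 118 (3.05), and Il11 at 0.220, 0.412, 0.265 and 7.25 (2.70). In each of these 4 genes the fusion was far above the rest and Omomyc alone was above PBS. The chemokine gene Cxcl1 had 41.3 and 232 FPKM at 6 h (2.46) and 37.3 and 1054 at 3 h (4.79). Nfkbia, the inhibitor induced by NF-κB itself, had a ratio of 0.49, and Csf1, a macrophage growth factor gene, -0.79. None of 9 kept interferon genes passed 2-fold, with a median of 0.46 over FPP-1746 and 0.21 over PBS, and of 0.12 over FPP-1746 with no filter on FPKM.

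For a few called genes the carrier itself differed from PBS, and the reference mattered. Ccl5, a chemokine gene, was at 81.5 FPKM in PBS, 77.5 in Omomyc, 36.3 in FPP-1746 and 74.6 in the fusion. The fusion was thus 1.02 above FPP-1746 on the log2 scale, but -0.13 against PBS, since FPP-1746 alone was the low column. Il33 was at 3.67, 1.76, 1.22 and 6.52 FPKM, a ratio of 1.76 over FPP-1746 and 0.69 over PBS. The acute-phase gene Saa3 had 1.10 and 0.29, and the ribosomal protein gene Rps29, at 0.808 and 2.99 FPKM in FPP-1746 and the fusion, had 0.33 over PBS. The ribosomal precursor record Rn45s was at 181, 178, 117 and 999.6 FPKM, a ratio of 3.09 over FPP-1746 and 2.46 over PBS.

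On the lower side, contractile and actin genes had the lowest median of the 29 lists described. Many of them are switched on by serum response factor (SRF) and its actin-sensing partners, and they build stress fibres. Of 22 kept, none was higher, 10 were lower and 19 lay below 0, with a median of -0.98. Acta2, smooth muscle actin (mm9 chr19:34315581-34329826), was at 86.2 FPKM in PBS, 131 in Omomyc, 143 in FPP-1746 and 13.5 in the fusion, a ratio of -3.31. The fusion column was the lowest and FPP-1746 the highest, so the ratio over PBS was smaller, -2.59. Cnn2, a calponin that binds actin (mm9 chr10:79451345-79458145), was at 274, 309, 349 and 55.4 FPKM (-2.63). Myl9, a myosin light chain gene, was at 8.05, 10.9, 9.0 and 0.770 (-2.50), and Actg2, enteric actin, at 10.3, 13.3, 13.8 and 1.77 (-2.42). Tagln, another actin-binding protein gene, had 7.74 and 1.07 FPKM (-2.08), with a locus shared among 3 genes.

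The more abundant members were lower as well. Actb, the main cytoskeletal actin, went from 2584 to 812 FPKM (-1.67), Tpm1, a tropomyosin, from 1362 to 448 (-1.60), and Myh9, non-muscle myosin, from 192 to 80.3 (-1.25). Actins and tropomyosins resemble each other in sequence, so reads could be split between copies. Srf itself went from 66.7 to 34.4 (-0.93), short of 2-fold. Zyx, a focal adhesion protein gene, had 0.04 and Fhl2, a partner of SRF, 0.94. As the plot of this list shows, FPP-1746 and Omomyc alone mostly stood above PBS: the list's median was 0.28 for FPP-1746 and 0.18 for Omomyc. Over PBS the fusion had 8 lower members and a median of -0.65, and at 3 h over FPP-1746 9 lower and -0.71.

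**Figure D3:**
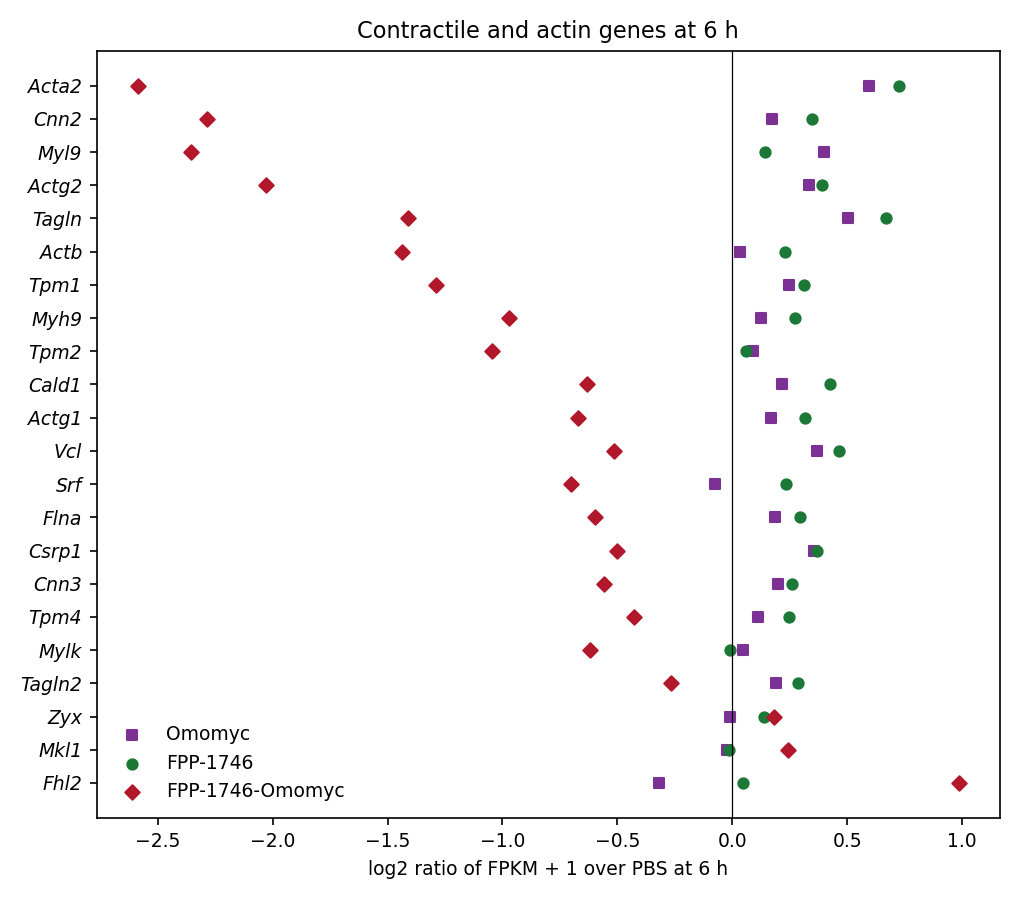
Log2 ratios of FPKM + 1 over PBS at 6 h for 22 contractile and actin genes, in Omomyc (squares), FPP-1746 (circles) and FPP-1746-Omomyc (diamonds), 1 averaged column each and PBS at 0. Acta2 lies at -2.59 with the fusion and at 0.72 with FPP-1746, and Fhl2 is at the bottom with the fusion at 0.99.

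Further adhesion and matrix genes were lower in part. Of 13 targets of YAP, a mechanosensitive coactivator, 3 were lower (23.1%, against 3.21% over all genes) and none was higher. The median was only -0.12, and -0.02 over PBS, with 6 members above 0 and 7 below. Ankrd1, a nuclear ankyrin protein gene, was at 242, 222, 246 and 73.3 FPKM in PBS, Omomyc, FPP-1746 and the fusion (-1.73). Axl, a receptor kinase, went from 182 to 65.0 (-1.47) and Cyr61, a matricellular protein gene, from 289 to 109 (-1.39), while Ctgf, its relative, had -0.49. Of 27 genes of TGF-β signalling and matrix, 4 were lower (14.8%, against 3.21% over all genes). Only 1 was higher (3.7%, against 6.94%), and the median was -0.28. Over PBS the fusion had 2 lower members and a median of -0.05, and FPP-1746 itself had a median of 0.14. Podnl1, a leucine-rich matrix protein gene, went from 39.2 to 6.67 FPKM (-2.39) and Sparc, a collagen-binding protein gene, from 956 to 468 (-1.03). Cxcl12, a stromal chemokine gene (mm9 chr6:117118553-117131386), was at 665, 636, 674 and 151 FPKM (-2.15). Of 13 mesenchymal genes 3 were higher, 1 was lower, Axl again, and 5 lay below 0, with a median of 0.57. The filter kept 13 of the 16 listed, and Pdgfra passed it only through the fusion columns. With no filter on FPKM the median was 0.11, so it depended on which genes were kept. Pdgfra, a growth factor receptor gene, had 0.951 and 6.46 FPKM (1.93), Prrx1 36.5 and 89.3 (1.27) and Snai2 5.18 and 13.4 (1.22), both transcription factor genes.

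Among cell cycle genes the calls lay mostly in the G1 and S phases. Of 38 genes of replication and the G1 to S step, 7 were lower (18.4%, against 3.21% over all genes), none was higher and 30 lay below 0, with a median of -0.46. Ccne1, cyclin E1, which starts S phase (mm9 chr7:38883003-38892509), was at 38.4, 37.8, 41.1 and 8.71 FPKM (-2.12). Ccnd1, cyclin D1, was at 262, 242, 247 and 85.1 (-1.52). Rrm2, which makes deoxynucleotides, was at 176, 164, 166 and 56.0 (-1.55), and Tk1, thymidine kinase, at 76.8, 78.0, 67.7 and 18.7 (-1.80, shared locus). The remaining 3 were Gins2 (-1.17), E2f8 (-1.14) and Ccnd3 (-1.14, shared locus), while Pcna at 0.20 and Cdc6 at -0.23 did not pass 2-fold. Of 28 mitotic genes 24 lay below 0 with a median of -0.59, and only Birc5, survivin, was lower by 2-fold (3.57% of the list, near the share over all genes), from 230 to 107 FPKM (-1.10). Top2a, a topoisomerase, went from 147 to 76.0 (-0.95) and Mki67 from 21.3 to 13.0 (-0.67). At 3 h over FPP-1746 the mitotic list had 5 lower and a median of -0.73, and the replication list 2 lower and -0.20.

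Metabolic and ribosomal lists had medians nearer 0. Ribosomal protein genes, many of which have pseudogenes that share reads, had a median of -0.18 with 53 of 68 below 0, and only Rpl12 and Rps29, at 3.74 and 2.99 FPKM in the fusion, were past 2-fold. At 3 h the same list had a median of 0.58. Of 23 genes of glycolysis and hypoxia 3 were higher, Ndrg1, Vegfa (38 and 154 FPKM, 1.99) and Ero1l (39.8 and 95.8, 1.25), while Ldha had -0.48. Of 19 cholesterol genes 1 was lower (5.26%, near the 3.21% over all genes), Mvk (38.5 and 16.8 FPKM, -1.15), with a median of -0.16. For that list the median over PBS was 0.40 in FPP-1746, 0.36 in Omomyc and 0.08 in the fusion. Among 13 histone genes the linker histones Hist1h1c and H1f0 were higher, with 12.4 and 44.8 FPKM (1.77) and 5.22 and 16.2 (1.47). Brd2, of the BET family that reads acetylated histones, had 80.9 and 169 FPKM (1.06). It was the only one of 10 BET and P-TEFb genes past 2-fold (10%, near the 6.94% over all genes).

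**Figure D4:**
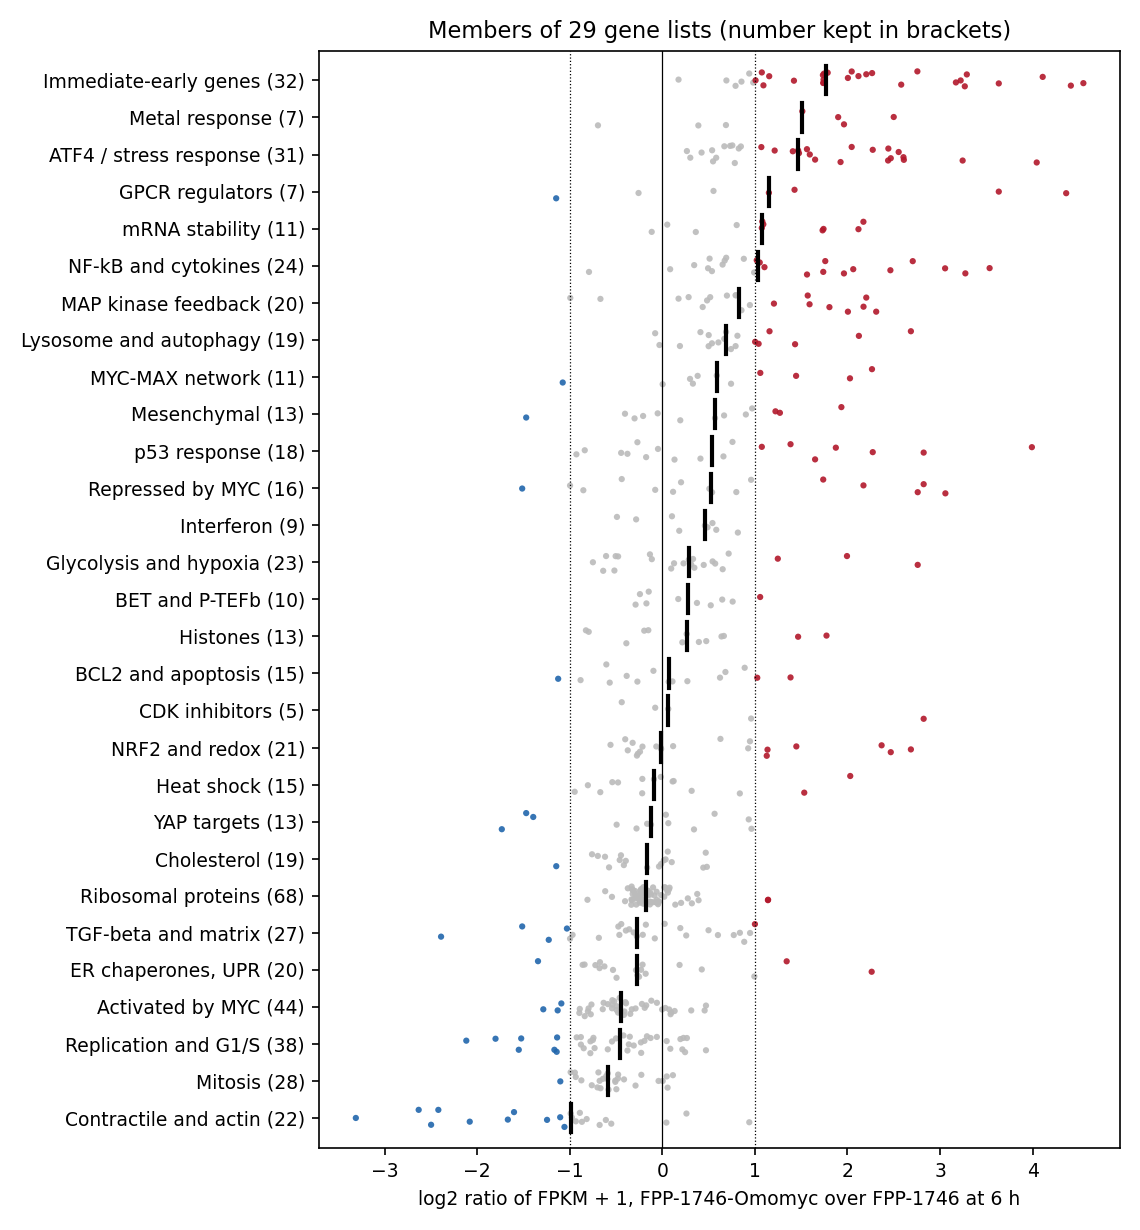
Log2 ratio of FPKM + 1, fusion over FPP-1746 at 6 h, of each kept member of 29 gene lists, 1 point per gene, with the list's median as a black bar, the dotted lines at 2-fold and the number kept in brackets. Early genes lead at a median of 1.77, the contractile genes are last at -0.98, and lists overlap in genes.

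The gene orders at 3 h and 6 h were related but not equal. Fusion over FPP-1746 at 3 h, which shares no column with 6 h, gave 601 genes higher (5.86%) and 412 lower (4.01%). Higher at both times were 342 genes, 48.0% of those at 6 h and 56.9% of those at 3 h. Lower at both were 62, which is 18.8% of those at 6 h and 15% of those at 3 h. These counts include small RNA records. Without them 328 genes were higher at both times (48.3% and 58.1%) and 49 lower (16.7% and 13.1%). Across all genes the ratios at both times had a Pearson correlation of 0.46 and a Spearman correlation of 0.37. Without small RNA records these were 0.53 and 0.38. Genes are not independent replicates, so this only describes the columns. Among lower genes, Cxcl12 had a ratio of -0.50 at 3 h and -2.15 at 6 h, and Ccne1 -0.51 and -2.12. Klhdc8a, a kelch-domain gene, was as low at 3 h (-2.71) as at 6 h (-2.69).

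Some genes past 2-fold at 6 h lay on the other side of 0 at 3 h. Rpp38, encoding a subunit of RNase P, had 14.7 FPKM in FPP-1746 and 6.61 in the fusion at 3 h (-1.04), and 15.3 and 36.6 at 6 h (1.20). Ppp1r10, a phosphatase regulator (shared locus), had -0.97 and 1.16, and Kcnk2, a potassium channel gene, -0.70 and 1.16. The others on this side were Zfp935 (-0.86 and 1.19) and Tsku (-0.75 and 1.01). In the reverse direction Id1, an inhibitor of bHLH factors, had 194 and 357 FPKM at 3 h (0.87) and 176 and 86.4 at 6 h (-1.02). Sh3bp1 had 0.62 and -1.79, Tnnt2, cardiac troponin T, 0.53 and -1.35, Spc24, of the kinetochore, 0.49 and -1.11 and Rab3a, of vesicle release, 0.90 and -1.02 (shared locus). The carrier column of Rpp38 was nearly equal at both times, while for Id1 the fusion column changed most.

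**Figure D5:**
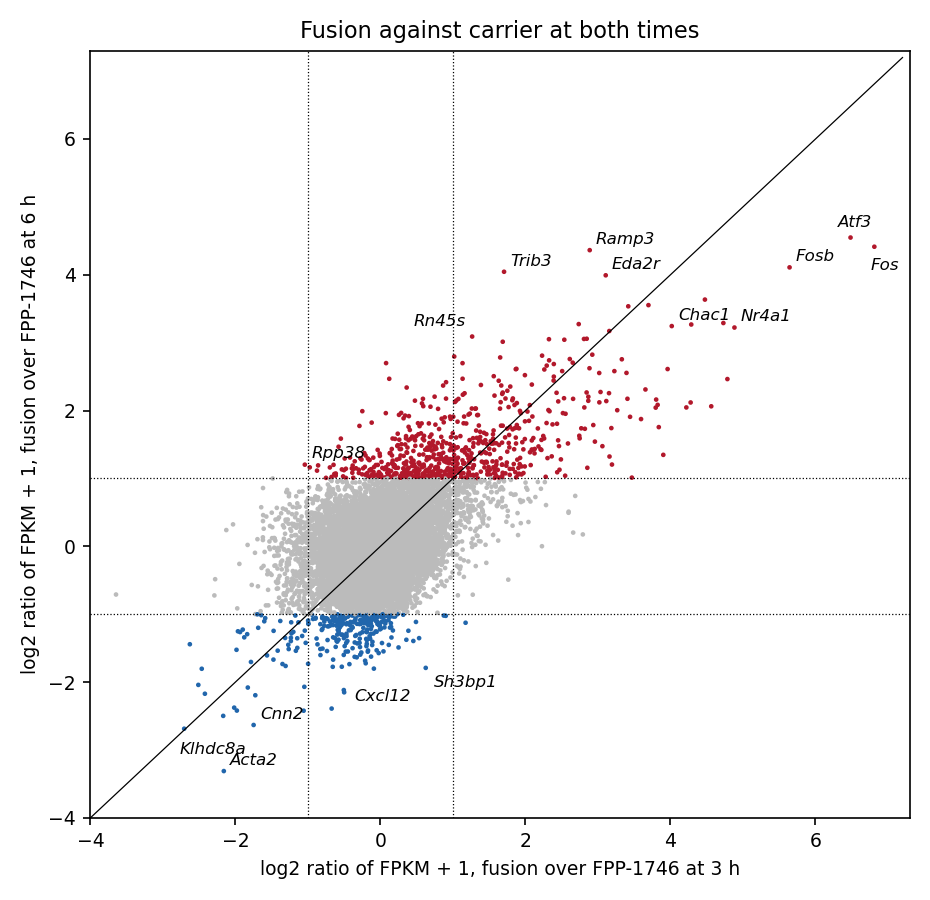
Log2 ratio of FPKM + 1, fusion over FPP-1746, at 3 h (x axis) and 6 h (y axis) for 10122 genes, small RNA records left out, coloured red or blue where past 2-fold at 6 h, with dotted lines at 2-fold and a solid line of equal ratios. Fos (6.81 and 4.41) lies to the right of the line, Trib3 (1.70 and 4.04) to its left, and Rpp38 above 0 at 6 h only.

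Promoter motifs were counted in the 300 bases around each start in the RefSeq table (250 before to 50 after), on both strands, for 480 of the 712 higher and 212 of the 329 lower genes that had a promoter there. The E-box CACGTG occurs in 7.15% of all 32851 promoters and, counting a gene once if any of its promoters holds it, in 8.09% of all 27025 genes with a promoter. Of the kept genes 12.6% had it in a promoter, of higher genes 16.2% and of lower genes 8.02%. The ATF4 core TGATGNAA, which is in 3.97% of all promoters and 4.51% of all genes, was found in 2.54% of kept, 6.46% of higher and 0.472% of lower genes. The CRE TGACGTCA (1.79% of all promoters, 2.03% of all genes) was in 3.91%, 5.42% and 2.36%, and the AP-1 site TGANTCA (7.81% and 8.97%), counted separately where it overlaps another motif, in 5.69%, 9.79% and 4.25%. The CArG box (1.63% and 1.81%) was in 1.66%, 1.88% and 4.72%. A match is a run of letters and not a bound site.

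By list, 9 of 25 ATF4 targets with a promoter held the ATF4 core, among them Trib3, Chac1, Nupr1, Asns and Slc7a11. The CArG box was in 6 of 18 contractile genes: Actg1, Cnn2, Fhl2, Myl9, Srf and Vcl. Of these 6, Cnn2 and Myl9 passed 2-fold and Fhl2 lay above 0. The E-box was in 13 of 38 genes activated by MYC, and in 6 of 25 immediate-early genes. Of the same 25, Atf3 alone held the ATF4 core.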

How the data were processed

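RNA-seq was done on T11 cells in 8 groups of 3 biological replicates. The authors deposited 1 table of mean FPKM per group; single replicates were not used here. Tools in the submitters' processing notes are Cuffnorm 2.2.1, Cufflinks 2.2.1, STAR 2.1.3 and bcl2fastq 2.17.1.14, and the build is mm9. Of their order and settings, the library scaling and any use of strand, nothing is given in the sources used here, so overlapping genes and antisense partners cannot be told apart. A locus was shared by 4163 rows of the table, and 25 symbols had become calendar dates. Positions are the table's, with starts shifted by 1 to count from 1.

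Log2 ratios of FPKM + 1 (pseudocount 1), fusion over FPP-1746, were computed with pandas 2.3.3 and numpy 2.4.6 under Python 3.11.15, over genes averaging 1 FPKM or more, and called at 2-fold. With 1 mean per group no test was possible. The call rule was tried on simulated data, with planted differences well past 2-fold in genes well above the filter. Planted differences near 2-fold or in genes of low FPKM were not tried, so it does not bear on such calls. The comparison, the 33 gene lists (4 of them cell type markers), the motifs and the rule for named genes were chosen with earlier results of these data known. The naming skipped small RNA records, predicted genes and pseudogenes. Named were the 15 highest and 15 lowest ratios, up to 4 members of each list past 2-fold, Myc, Max, Mnt and Cdkn1a, up to 5 called genes where FPP-1746 differed most from PBS, up to 5 per direction opposite or nearest to 0 at 3 h, and the 3 nearest to each limit. Other list members were named after their values were seen, as examples of members short of the limit or of a role. Some genes that this rule names are not reported here. Alternatives tried were other pseudocounts, filters, folds, scalings and reference columns.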

Additional observations from a re-analysis of the deposited data

Results flagged for a closer look

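Rpp38, which encodes a subunit of RNase P, had opposite calls at the 2 times. At 3 h it was listed at 14.7 FPKM in FPP-1746 and 6.61 in the fusion, and at 6 h at 15.3 and 36.6 FPKM. Its log2 ratio of FPKM + 1 was therefore -1.04 at 3 h and 1.20 at 6 h, which differ by 2.25. The difference was not tested, because each group is 1 averaged column. Among the genes that the naming covers, it was the only one past 2-fold in opposite directions.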

How the results depend on the processing

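No paired analysis was possible because the columns are group averages that carry no replicate numbers, and for the same reason no replicate could be left out. With a pseudocount of 5 FPKM, 355 genes were higher and 159 lower at 6 h, against 712 and 329, and 180 and 34 at both times, against 342 and 62. A 1.5-fold rule gave 1747 and 1520 at 6 h and 836 and 342 at both times. A 3-fold rule gave 229 and 65, and 124 and 21. Higher genes made 53.5% of calls at 1.5-fold, 77.9% at 3-fold and 62.3% after quantile normalisation, against 68.4%. These counts at both times were chosen after seeing the data. A pseudocount of 0.1, no filter, a minimum of 5 FPKM, median scaling, quantile normalisation, leaving out small RNA records and 2 other references (the mean of both FPP-1746 columns, and the mean of the 3 columns without the fusion at 6 h) kept both counts at 6 h within 1.5 times. No named gene past 2-fold changed sign under these alternatives. Low genes lost the 2-fold call with a pseudocount of 5, among them Pdgfra (0.94), Apol10b (-0.72), Il33 (0.89), Snai2 (0.86), Bbc3 (0.95), Ern1 (0.96) and Mxd3 (-0.81). With the mean of the 3 columns without the fusion, Ccl5 had 0.19, Sparc -0.92 and Mcl1 0.97. With the mean of both FPP-1746 columns, Slc30a1 had 0.81, Gart -0.99 and Brd2 0.95, and the medians of the ATF4 targets (0.96), the p53 response (0.16), the metal response (0.81) and the YAP targets (-0.27) moved. Quantile normalisation gave Birc5 -0.96. Without the FPKM filter the medians of the NF-κB list (0.67), genes repressed by MYC (0.28), mesenchymal genes (0.11) and receptor regulators (0.092) were smaller, as were those of the MYC network (0.38) and interferon genes (0.12). A pseudocount of 5 gave medians of 0.36, 0.26 and 0.23 for the MYC network, the p53 response and interferon genes. The cause of these moves was not tested. At roughly 100 fragments per FPKM for a 2000-base transcript, values well below 1 FPKM and those of short transcripts rest on fewer fragments. The figure was read from averaged columns and is not the depth of a single replicate.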

Other observations

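Several genes outside the lists had ratios close to those of the leading stress genes, and were chosen after their values were seen. Sat1, which acetylates spermidine and spermine for their breakdown, was listed at 31.0 FPKM in PBS, 31.5 in Omomyc, 30.9 in FPP-1746 and 263 in the fusion at 6 h, a log2 ratio of 3.05 over FPP-1746. Gla, the lysosomal alpha-galactosidase, was at 7.92, 8.85, 8.25 and 75.2 FPKM (3.04). Tsc22d3, the glucocorticoid-induced leucine zipper gene, was at 14.4, 16.1, 13.5 and 116 FPKM (3.01), and Slc6a9, a glycine transporter gene at a shared locus, at 11.3, 11.5, 10.8 and 81.2 (2.80). For all 4 genes the columns without the fusion lay close together. At 3 h the ratios of fusion over FPP-1746 were 2.32 for Sat1, 2.54 for Gla, 1.69 for Tsc22d3 and 1.02 for Slc6a9.

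Small RNA records ranged from -8.31 to 7.53 on the log2 scale between the fusion and FPP-1746 at 6 h, with 33 higher and 36 lower of 140. Between Omomyc and PBS 28 were higher and 36 lower.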
